A study of Mus musculus with 24 samples.

Results

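The androgen and glucocorticoid metabolizing enzymes of the mouse adrenal gland were followed here as a set of 10 genes: Srd5a1, Srd5a2, Srd5a3, Hsd11b1, Hsd11b2, Hsd17b1, Hsd17b3, Akr1c14, Akr1b7 and Serpina6. Every non-control probe that carried one of these gene names on the array was used, which gave 12 probes and 21 spots. Of the 10 genes, 9 entered the test, among 20724 named genes and 31040 features tested in all. Hsd11b2 was measured but was too dim to be tested.

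Total RNA of adrenal glands had been hybridized to 24 single-colour Agilent arrays, 3 in each of 8 groups. All mice carried the C57BL/6 strain name and were either WT or Kcnk3 null; Kcnk3 encodes TASK1, a background potassium channel. WT males and Kcnk3 null males were sham or castrated, and WT females and Kcnk3 null females were sham or injected with testosterone. The age of the mice, the testosterone dose, the time between treatment and sampling and whether glands were pooled are not given in the sources used here, and neither is how the null allele was made. Male sham and testosterone-treated female groups are called high androgen below, and castrated male and sham female groups low androgen, which describes the labelled treatment and not a measured hormone.

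Steroid action in a tissue depends on enzymes that make, strengthen or remove the ligand. 5α-reductases turn testosterone into the more potent dihydrotestosterone, 17β-hydroxysteroid dehydrogenases interconvert weak and strong androgens and oestrogens, and 11β-hydroxysteroid dehydrogenases switch glucocorticoids on or off. Aldo-keto reductases act on steroid ketones and on aldehydes released during steroid synthesis, and corticosteroid-binding globulin, the product of Serpina6, carries glucocorticoids in plasma. The mouse adrenal differs between the sexes, and its inner X-zone is known to regress under androgen.

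The results turned on Srd5a2 and Serpina6. Srd5a2 was read by a single 60-base probe at chr17:74367046-74367105 on the minus strand of mm9, the build named in the files. Its relative Srd5a3 had a probe of related sequence at chr5:76583748-76583807 on the plus strand. Another Srd5a3 probe lay further 3′, at chr5:76584386-76584445. These probes are set side by side because Srd5a2 and Srd5a3 behaved differently and their sequences are related. Capitals mark the 36 of 60 positions at which they are identical, and each probe ends in the stop codon TAA.

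Srd5a2: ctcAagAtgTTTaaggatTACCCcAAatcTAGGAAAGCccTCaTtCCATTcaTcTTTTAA

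Srd5a3: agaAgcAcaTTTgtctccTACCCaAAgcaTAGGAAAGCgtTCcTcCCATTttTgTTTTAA

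Serpina6 was read by a pair of probes on the minus strand of chromosome 12, a 3′ probe at chr12:104884880-104884939 and an upstream probe at chr12:104886817-104886876. The upstream probe is printed because its readings serve as a further measurement of the same gene.

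Serpina6, upstream probe: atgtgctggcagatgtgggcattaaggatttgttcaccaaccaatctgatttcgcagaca

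The longest run that a probe of the 10 genes shared with an array probe of another gene was 16 bases, for the 3′ probe of Serpina6. The annotation of exons and UTRs in mm9 was not used here.

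Levels below are log2 signals relative to the 75th percentile of the same array, so that 0 is that percentile, and levels of different probes are not compared. A difference was called when limma's p, adjusted by Benjamini-Hochberg over the 31040 features, was under 0.05. The 8 groups shared one estimate of spread, and the ± beside a difference is its standard error. The label adrenal gland was met by its markers: all 6 cortical and all 5 medullary markers were well above background on every array. Kcnk3 itself read 5.00 to 6.46 in arrays labelled WT and 2.08 to 4.96 in arrays labelled null; its probe may lie outside the deleted part, so this does not test the labels. On 2 arrays, female null testosterone array 1 and male WT sham array 3, the summed signal of the 10 liver markers on the array was 1.35e+03 and 845 in units of the 75th percentile, against 5.76 to 22.7 on the others. On 9 arrays the sex-linked genes of the other sex reached at least 10% of their level in that sex. The called Srd5a2 differences between single groups, and several Serpina6 differences, are given with and without the 9 arrays. The androgen averages could not be fitted without these 9 arrays, since no treated WT female array was left. Akr1c14, Serpina6 and Hsd11b1 differences that rest on the 2 arrays with liver transcripts are given with and without those 2 arrays. Bulk RNA does not separate fewer cells of a type from less RNA per cell.

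Srd5a2, the 5α-reductase of classical androgen target organs, followed the labelled androgen state in both sexes and both genotypes. Averaged over the 4 high and low androgen pairs it was 2.05 ± 0.28 higher in high androgen arrays on the log2 scale, 4.13-fold, with a 95% interval of 1.46 to 2.64 and an adjusted p of 0.000246 in limma. Among all features 2.79% were called in this average, and of the 9 genes tested 2 were called, Srd5a2 and Serpina6 (both higher). The 9 genes had a median difference of 0.44, against -0.01 for all features.

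In sham WT males Srd5a2 read 5.80, 5.83 and 5.78 in arrays 1, 2 and 3, and in castrated WT males 2.95, 4.27 and 4.08. Sham Kcnk3 null males read 5.93, 5.47 and 5.64, and castrated null males 3.37, 3.14 and 3.16. All sham males lay above all castrated males in both genotypes, and the sham males of both genotypes lay close together, between 5.47 and 5.93. Sham WT females read 1.66, 2.91 and 3.54, and testosterone-treated WT females 4.56, 4.25 and 4.83. Sham null females read 3.96, 3.61 and 1.29, and treated null females 3.99, 5.07 and 5.37. The treated and sham females did not overlap in either genotype, although in null females the lowest treated array lay only just above the highest sham array. Over all groups the 12 high androgen arrays had a lowest, median and highest value of 3.99, 5.42 and 5.93, and the 12 low androgen arrays of 1.29, 3.27 and 4.27. Of the 12 high androgen arrays, 10 lay above every low androgen array.

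Ordered by mean, sham WT males came first (5.80 ± 0.02, SD, n = 3) and sham null males next (5.68 ± 0.23, SD, n = 3). Treated null females (4.81 ± 0.73, SD, n = 3) and treated WT females (4.55 ± 0.29, SD, n = 3) followed. Castrated WT males (3.77 ± 0.71, SD, n = 3), castrated null males (3.23 ± 0.13, SD, n = 3), sham null females (2.95 ± 1.45, SD, n = 3) and sham WT females (2.70 ± 0.96, SD, n = 3) came last. Neighbours in this order overlapped in their single arrays, except that the lowest sham null male (5.47) lay just above the highest treated null female (5.37).

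**Figure D1:**
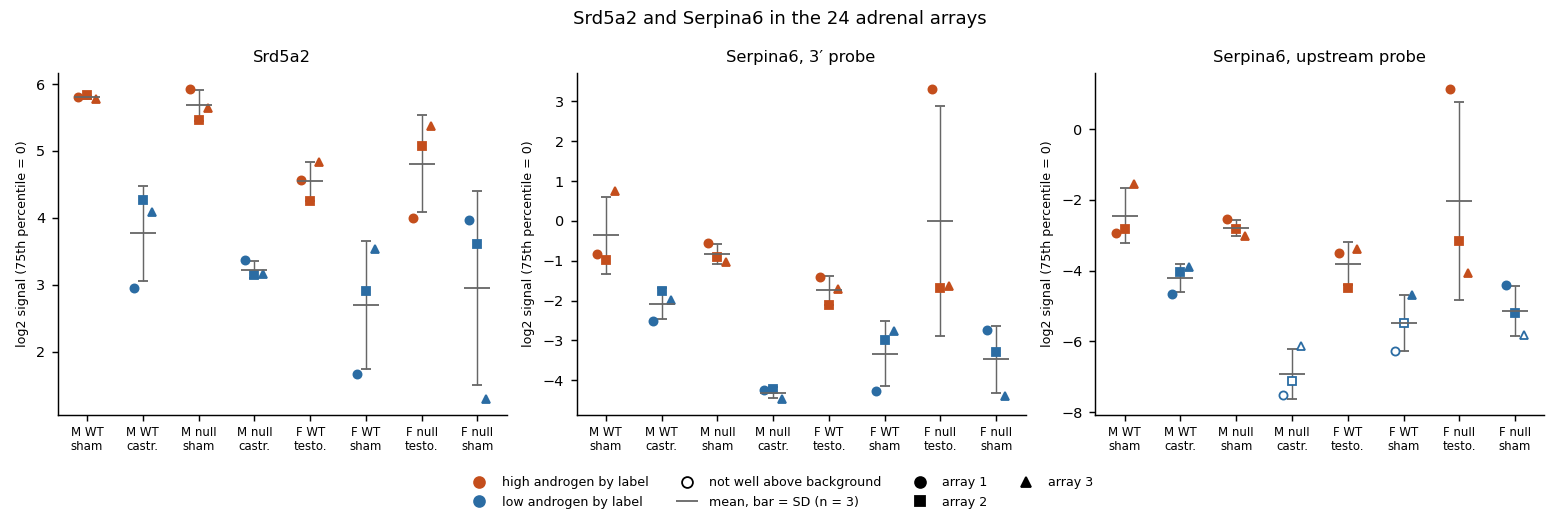
Log2 signal (75th percentile of each array = 0) of Srd5a2 and of the 3′ and upstream probes of Serpina6 in the 24 arrays, 3 in each of the 8 groups; bars show the mean and SD (n = 3), orange marks the high and blue the low androgen groups, and open symbols are not well above background. Orange points lie above the blue points of the same sex and genotype in all 3 panels, and array 1 of the treated null females stands apart for both Serpina6 probes, at 3.32 and 1.14.

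Taken pair by pair, the size of the Srd5a2 difference was similar for castration and testosterone, but only castration in null males passed the test. Castration lowered Srd5a2 in null males by 5.47-fold (-2.45 ± 0.56, limma adjusted p = 0.0404), the only one of 9 genes called there, against 1.01% of all features. In WT males the difference was -2.04 ± 0.56 with an adjusted p of 0.164, and 0 of 9 genes were called by limma, against 0.599% of all features, with 5 of 9 at an unadjusted p under 0.05. The difference between the genotypes in the response to castration was -0.42 ± 0.79 (95% interval -2.09 to 1.25, adjusted p = 1), so the genotypes were not shown to differ.

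The castration call in null males was close to the threshold. It was lost in 13 of 24 fits that left out a single array, with values from -2.33 to -2.56 and adjusted p from 0.0503 to 0.187. These were the fits without any 1 of the 3 sham null, 3 castrated null and 3 sham WT males, castrated WT male array 3, sham WT female array 2, and treated WT female arrays 1 and 2. In WT males the call was gained without sham null female array 3 (-2.04, adjusted p = 0.0285).

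Testosterone treatment of females gave differences of 1.84 ± 0.56 in WT (limma adjusted p = 0.34) and 1.86 ± 0.56 in null mice (limma adjusted p = 0.362). Neither was called, and their 95% intervals were 0.67 to 3.02 and 0.68 to 3.04. By limma 0 of 9 genes were called in treated WT females, against 0.0741% of all features, and 0 of 9 in treated null females, against 0.209%; at an unadjusted p under 0.05 there were 1 and 3. Few features of any kind passed the test in treated females, and 2 of 9 genes had treated and sham groups that did not overlap in each genotype, against 7.61% and 8.68% of all features. The genotypes' responses to testosterone differed by 0.01 ± 0.79 (95% interval -1.65 to 1.68).

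Between sham mice of the 2 sexes, Srd5a2 was 8.57-fold lower in WT females than in WT males (-3.10 ± 0.56, limma adjusted p = 0.00504). In null mice it was 6.62-fold lower in females (-2.73 ± 0.56, limma adjusted p = 0.0241). It was the only one of 9 genes called in either comparison, against 2.01% of all features in WT and 0.747% in null mice. These comparisons share their sham arrays with the castration and testosterone comparisons. In null mice the call was lost without any 1 of the 3 sham null males (-2.60, -2.83 and -2.75, adjusted p = 0.128, 0.0697 and 0.095 without arrays 1, 2 and 3) and without sham null female array 3 (-1.90, adjusted p = 0.0988).

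Arrays were spread over 4 slides, and on slides 1 to 3 the sign of the Srd5a2 difference was the same on every slide for castration, testosterone and sex. Castrated minus sham was -2.85, -1.56 and -1.70 on slides 1, 2 and 3 in WT males. It was -2.56, -2.32 and -2.48 in null males. In null females testosterone minus sham was 0.03, 1.47 and 4.08, so the spread between slides was wide and slide 1 showed almost no difference. In WT females it was 2.90 and 1.34 on slides 1 and 2. Array 3 of both WT female groups lay alone on slide 4, and each of these had an RNA integrity number of 3, the lowest of a range from 3 to 9.

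Sex-linked signal had the same order as Srd5a2 in both groups of WT females, but not in the null groups given below. In sham WT females the Y-linked signal was 1.2%, 25.4% and 45.5% of the male level in arrays 1, 2 and 3, beside Srd5a2 levels of 1.66, 2.91 and 3.54. In treated WT females it was 32.9%, 19.2% and 36%, beside Srd5a2 levels of 4.56, 4.25 and 4.83, so the order of the 3 arrays was the same for both measures in each group. Y-linked signal in sham null females was 0.156%, 0.114% and 0.18%, beside Srd5a2 levels of 3.96, 3.61 and 1.29. Xist signal was 19.5%, 18.3% and 6.08% of the female level in sham null male arrays 1, 2 and 3. Srd5a2 levels there were 5.93, 5.47 and 5.64. For castrated null males Xist signal was 17.4%, 58% and 4.15%, beside Srd5a2 levels of 3.37, 3.14 and 3.16. The arrays with signal of 10% or more are the 9 arrays counted above. Without these 9 arrays no treated WT female array and a single array in several groups were left; the Srd5a2 difference between the sexes was then -4.14 in WT mice (adjusted p = 0.0546) and -2.69 in null mice (adjusted p = 0.595), and the castration difference in null males -2.48 (adjusted p = 0.979). The part of this signal in the results was not tested further.

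The summed signal of X-zone markers was lower in the high androgen groups of WT mice and of null males. It overlapped between the groups of null females. The sum adds signals on the linear scale, so its brightest marker weighs most, and it does not show the markers moving together. Akr1c18 alone had log2 means of 8.17 in castrated and -3.60 in sham WT males. Pik3c2g and Cyp17a1 are not given singly here. The summed signal of Akr1c18, Pik3c2g and Cyp17a1, in units of the 75th percentile, was 3.76 to 5.15 in sham WT males and 232 to 334 in castrated WT males. It was 3.71 to 133 in sham null males and 170 to 261 in castrated null males. Sham and treated WT females had 146 to 378 and 60.1 to 120, and sham and treated null females 22.3 to 108 and 3.53 to 46.5. Between null females the sum was lower in the treated than in the sham array on slide 1 (3.53 and 108) and slide 2 (9.41 and 69.8). It was higher in the treated array on slide 3 (46.5 and 22.3). Testosterone minus sham for Srd5a2 was 0.03, 1.47 and 4.08 on slides 1, 2 and 3. All 3 markers were on the array, and at least 2 were well above background on every array. Red blood cell markers, 5 of 6 on the array, summed to 642 to 1.25e+03 in sham and 257 to 405 in castrated WT males, and to 363 to 733 and 643 to 816 in null males. Gonad markers, 4 of 5 on the array, summed to 1.07 to 1.48 in sham and 1.78 to 2.6 in castrated WT males. In null males they summed to 1.09 to 1.3 and 2.94 to 5.01. Only 1 or 2 gonad markers were well above background on any array, so this sum does not show several markers moving together. In treated WT females the gonad sum (2.37 to 2.6) also lay above that of sham WT females (1.05 to 1.76). The part of these markers in the Srd5a2 and Serpina6 differences was not tested.

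The Kcnk3 genotype left Srd5a2 without a detectable difference. The average of the 4 null minus WT differences was -0.04 ± 0.28, with a 95% interval of -0.63 to 0.55 and a limma adjusted p of 0.973. The single pairs gave -0.12 in sham males, -0.54 in castrated males, 0.25 in sham females and 0.26 in treated females, each ± 0.56, and the groups overlapped in all 4.

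Srd5a1, the other steroid 5α-reductase, went the opposite way in WT males, without passing the test. It read 2.55, 2.61 and 2.44 in sham and 3.63, 3.24 and 3.27 in castrated WT males, a difference of 0.84 ± 0.20 with a limma adjusted p of 0.075. The groups did not overlap; of the 9 genes 7 had groups that did not overlap in this comparison, against 16.1% of all features. In null males castration gave a smaller value (sham 2.60 to 2.76, castrated 2.69 to 2.89), and the difference between the genotypes' responses was -0.70 ± 0.29 (adjusted p = 1). Over all 24 arrays Srd5a1 ranged from 2.30 to 3.63, and its high minus low androgen average was -0.26 ± 0.10 (adjusted p = 0.241). In WT males the castration difference was called when slide was a block (adjusted p = 0.0179) and without slide 4 (0.84, adjusted p = 0.00717).

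Srd5a3, named for its sequence similarity, is a polyprenol reductase needed for protein glycosylation. Its probes ranged from 0.19 to 1.12 and from -0.14 to 0.72, and neither was called in any comparison. The androgen averages were -0.17 for the former probe and -0.22 ± 0.08 (adjusted p = 0.228, fit over every probe) for the probe printed above. Its range over the 24 arrays was thus far narrower than that of Srd5a2.

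Hsd11b1, which regenerates active corticosterone from its inert 11-keto form, was read by 10 spots of 1 probe at chr1:195048169-195048228 on the minus strand (mm9). Levels ran from 2.37 to 4.20. Sham WT males read 3.88 to 4.00 and castrated WT males 3.11 to 3.44, a difference of -0.63 ± 0.30 (limma adjusted p = 0.809). Sham WT females lay lower than sham WT males by 0.86 (-0.86 ± 0.30, limma adjusted p = 0.182), with no overlap, and the androgen average was 0.44 ± 0.15 (limma adjusted p = 0.153). None of these passed the test. Without the 2 arrays with liver transcripts they were -0.59 ± 0.26, -0.82 ± 0.26 and 0.32 ± 0.12 (adjusted p = 0.523, 0.131 and 0.226), again not called. The highest array was the treated null female array with liver transcripts, at 4.20, and the other such array read 4.00, against at most 3.89 elsewhere.

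Hsd11b2, which inactivates glucocorticoids and guards the mineralocorticoid receptor in aldosterone target organs, was well above background on 0 of 24 arrays. Its probe, spread over chr8:108046785-108047002 on the plus strand (mm9), read -8.14 to -6.12. At this signal no difference between groups could be measured.

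Hsd17b1, which reduces oestrone to oestradiol, was well above background on 22 of 24 arrays. In sham WT males it ranged from -4.36 to -3.72 and in castrated WT males from -2.67 to -2.37, 1.57 ± 0.43 higher with a limma adjusted p of 0.166. The castrated WT males had the highest mean of the 8 groups (-2.55 ± 0.16, SD, n = 3), and castrated null males the next (-3.49 ± 0.25, SD, n = 3). These castrated groups did not overlap (null minus WT -0.95 ± 0.43, limma adjusted p = 0.658). The difference in WT males was called with slide as a block (adjusted p = 0.0445) and without slide 4 (adjusted p = 0.0402), at the same size of 1.57.

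Hsd17b3, the testicular enzyme that makes testosterone from androstenedione, was well above background on only 6 arrays and ranged from -7.73 to -4.93. No array of the castrated null males, sham null females or treated null females was well above background. The closest to a call was the null minus WT average, at a limma adjusted p of 0.0501, and the sex difference in null mice, at 0.0541. No size is given for it, since whole groups were dark. Gonad markers summed to 0.936 to 5.01 over all arrays, in units of the 75th percentile, with 1 or 2 of them well above background.

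Akr1c14, a 3α-hydroxysteroid dehydrogenase that removes dihydrotestosterone, stood out on the arrays with liver transcripts. It read 1.21 in treated null female array 1 and -0.71 in sham WT male array 3, against -4.98 to -2.56 on the other 22. Over the 24 arrays its correlation with albumin (Alb) was 0.703 (Pearson), and over the 22 others -0.139. Serpina6 went from 0.58 to 0.0287, Hsd11b1 from 0.398 to -0.13, and Srd5a2 had 0.0645 and -0.106. These coefficients describe the arrays, which share slides and groups, and carry no test. Akr1c14 was not called in any comparison, and its androgen average moved from 0.68 ± 0.52 to -0.03 ± 0.21 without the 2 arrays.

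**Figure D2:**
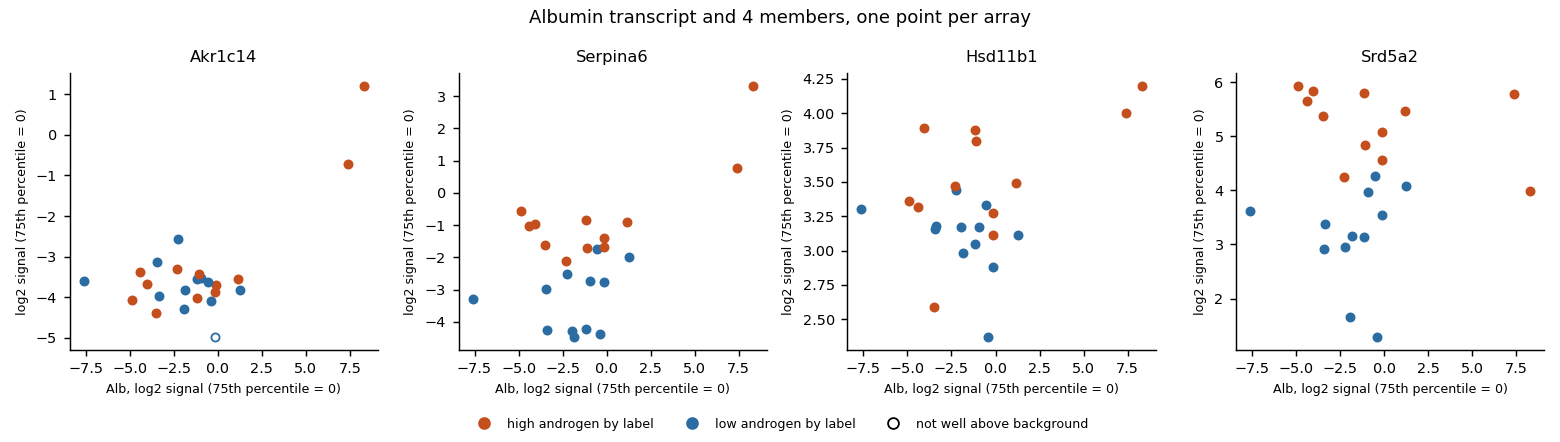
Log2 signal of Akr1c14, Serpina6 (3′ probe), Hsd11b1 and Srd5a2 against that of the albumin transcript (Alb), 1 point per array, both relative to the array's 75th percentile; orange is high and blue low androgen by label. The 2 arrays at the right, with Alb at 8.29 and 7.38 against at most 1.25 elsewhere, hold the highest Akr1c14, Serpina6 and Hsd11b1 values but not the highest Srd5a2.

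Akr1b7, an aldose reductase-like enzyme of the adrenal cortex that clears the aldehyde left by cholesterol side chain cleavage, read 7.46 to 8.91. Sham WT males (8.66 to 8.91) lay above castrated WT males (7.87 to 8.48), with a difference of -0.60 ± 0.25 (limma adjusted p = 0.659). Sham null males (8.30 to 8.87) lay above castrated null males (7.80 to 8.05), with a difference of -0.74 ± 0.25 (limma adjusted p = 0.244). Neither was called. Of the 9 genes 6 did not overlap between castrated and sham null males, against 22.6% of all features. The androgen average was 0.39 ± 0.13 (limma adjusted p = 0.124). Testosterone minus sham was small in both genotypes of females: treated and sham WT females had the same mean of 8.33.

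**Figure D3:**
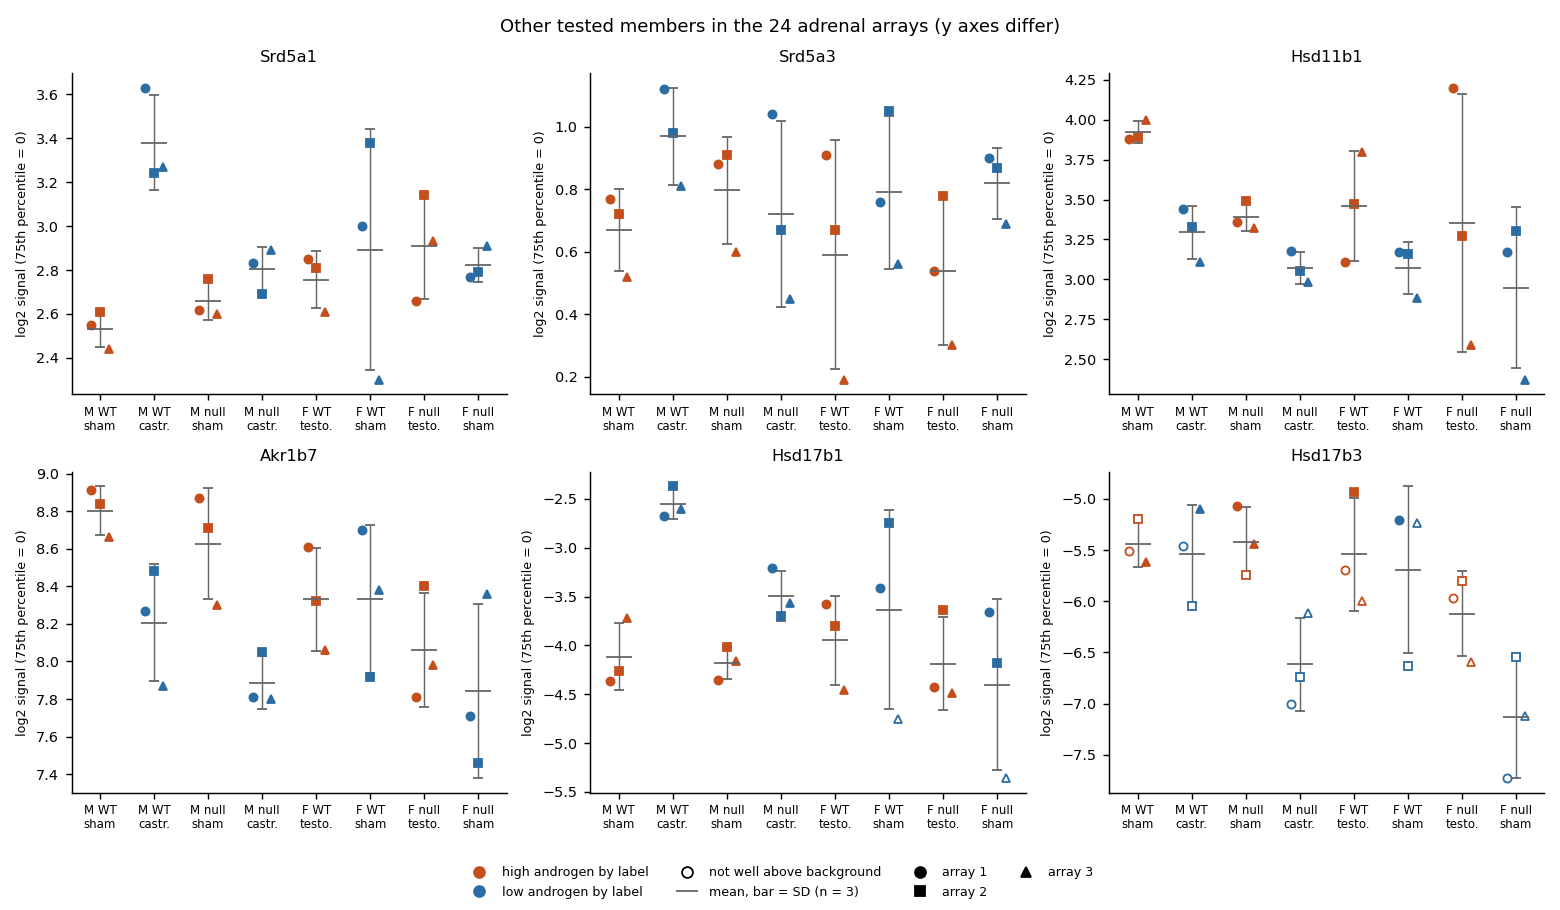
Log2 signal (75th percentile = 0) of Srd5a1, Srd5a3, Hsd11b1, Akr1b7, Hsd17b1 and Hsd17b3 in the 24 arrays, with the mean and SD (n = 3) of each group; y axes differ between panels, and open symbols are not well above background. Srd5a1 and Hsd17b1 are highest in castrated WT males (up to 3.63 and -2.37), Hsd11b1 and Akr1b7 have their highest group mean in sham WT males (3.92 and 8.80), and most Hsd17b3 points are open.

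Promoter sequences of RefSeq (GRCm38.p6) were at hand for 7 of the 10 genes and were searched over 250 bases before the start site, on both strands. The motifs were a hormone response element made of GNACA, any 3 bases and TGTNC (in 0.387% of 32851 promoters of this length), its single arm AGAACA (16.1%), the SF-1 site AAGGTCA (4.08%) and the TATA box TATAAA (12.4%). SF-1, the product of Nr5a1, is the factor of steroid-making cells. Srd5a2 (chr17:74047861-74048110, minus strand) held none of them, nor did Srd5a1, Srd5a3, Hsd11b1, Hsd17b3 or Akr1c14. Akr1b7 was the only one with matches and is printed for that reason, at chr6:34412112-34412361 on the plus strand. Capitals mark an SF-1 site at -248 to -242 and a single arm at -100 to -95 from the start, both read on the opposite strand.

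Akr1b7: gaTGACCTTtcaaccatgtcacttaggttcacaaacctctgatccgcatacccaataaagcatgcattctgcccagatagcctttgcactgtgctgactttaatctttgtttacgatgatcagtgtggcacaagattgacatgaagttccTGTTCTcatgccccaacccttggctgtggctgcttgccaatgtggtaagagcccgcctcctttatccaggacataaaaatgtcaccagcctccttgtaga

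Serpina6 was the other gene that followed the labelled androgen state. By its 3′ probe it was 2.57 ± 0.45 higher in high than in low androgen arrays on the log2 scale (95% interval 1.63 to 3.51, limma adjusted p = 0.00229). Without the 2 arrays with liver transcripts the average was 2.01 ± 0.21 and the adjusted p 3.89e-05. Serpina6 is known to be made mainly in liver; Alb ran from -7.61 to 1.25 on the 22 arrays of that fit.

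Sham WT males read -0.84, -0.98 and 0.76, the last being the array with liver transcripts, and castrated WT males -2.51, -1.75 and -1.99. Sham null males read -0.56, -0.91 and -1.03, and castrated null males -4.24, -4.23 and -4.47. Castrated null males were the lowest of the 8 groups (mean -4.31 ± 0.13, SD, n = 3). Sham WT females read -4.27, -2.99 and -2.75, and treated WT females -1.40, -2.12 and -1.70. Sham null females read -2.74, -3.30 and -4.39, and treated null females 3.32, -1.69 and -1.63, the first being the other array with liver transcripts. High and low androgen groups of the same sex and genotype did not overlap in any of the 4 pairs, and 11 of 12 high androgen arrays lay above every low androgen array. In sham WT females the order of the 3 arrays was that of their Y-linked signal, as for Srd5a2. In treated WT females it was not, with Y-linked signal of 32.9%, 19.2% and 36% in arrays 1, 2 and 3.

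Ordered by mean, treated null females (0.00 ± 2.88, SD, n = 3) and sham WT males (-0.36 ± 0.97, SD, n = 3) stood highest through their single arrays with liver transcripts, beside sham null males (-0.83 ± 0.24, SD, n = 3). Treated WT females (-1.74 ± 0.37, SD, n = 3) and castrated WT males (-2.08 ± 0.39, SD, n = 3) overlapped. Sham WT females (-3.34 ± 0.82, SD, n = 3) and sham null females (-3.48 ± 0.84, SD, n = 3) overlapped too.

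Castration gave -1.73 ± 0.90 in WT males (limma adjusted p = 0.894) and -3.48 ± 0.90 in null males (limma adjusted p = 0.0803). Neither was called over all 24 arrays. Without the 2 arrays with liver transcripts, the spread fell and the difference in null males was called at the same size (-3.48 ± 0.39, adjusted p = 0.000219), while in WT males it was -1.17 ± 0.43 (adjusted p = 0.393). Leaving out treated null female array 1 alone was enough for the call in null males (adjusted p = 0.000606).

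The upstream probe gave -4.13 ± 0.88 in castrated against sham null males, with an adjusted p of 0.0271 in a limma fit over every probe. No castrated null array was well above background for this probe, so the fall was at least 6.57-fold, measured against the lowest signal well above background on each array or the probe's own signal, whichever was higher. Its values were -2.55 to -3.01 in sham and -6.14 to -7.51 in castrated null males. The androgen average by this probe was 2.67 ± 0.44 (adjusted p = 0.00141).

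Between castrated males, Serpina6 was 4.69-fold lower in Kcnk3 null than in WT arrays (-2.23 ± 0.90) without overlap, but with a limma adjusted p of 0.518. Without the 2 arrays with liver transcripts, none of which is a castrated male, it was called (-2.23 ± 0.39, adjusted p = 0.00793). Serpina6 was then the only one of the 9 genes called in a null against WT pair. Calls over all features rose too in castrated males, to 293 of 31040 in that fit from 217 over all arrays. By the upstream probe the Serpina6 difference was at least 2.48-fold over all arrays. It was not called there (limma adjusted p = 0.285, fit over every probe), as for the 3′ probe over all arrays. Whether castration acted differently in the genotypes was not shown: the interaction was -1.75 ± 1.27 over all arrays (adjusted p = 1) and -2.31 ± 0.58 without the 2 arrays (adjusted p = 0.267). On slides 1, 2 and 3 the null minus WT difference in castrated males was -1.73, -2.48 and -2.48.

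In females testosterone minus sham was 1.59 ± 0.90 in WT (limma adjusted p = 0.966) and 3.47 ± 0.90 in null mice (limma adjusted p = 0.19). The value in null mice dropped to 1.81 ± 0.43 without the array with liver transcripts (adjusted p = 0.129). Female minus male in sham mice was -2.98 ± 0.90 in WT (adjusted p = 0.108 in limma) and -2.65 ± 0.90 in null mice (adjusted p = 0.246 in limma). Both were called without the 2 arrays, at -2.42 ± 0.43 (adjusted p = 0.00728) and -2.65 ± 0.39 (adjusted p = 0.003), and also without treated null female array 1 alone (adjusted p = 0.00155 and 0.00773).

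Without the 9 arrays with opposite sex-linked signal, with the arrays with liver transcripts kept, no Serpina6 difference was called. Castrated minus sham was then -3.44 ± 2.00 in null males (adjusted p = 1), female minus male -3.92 ± 1.64 in WT (adjusted p = 0.284) and -2.45 ± 1.64 in null mice (adjusted p = 0.905), and testosterone minus sham 3.47 ± 1.16 in null females (adjusted p = 0.592). The null minus WT difference in castrated males was -2.38 ± 1.64 (adjusted p = 1). As for Srd5a2, several groups held a single array in this fit.

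**Figure D4:**
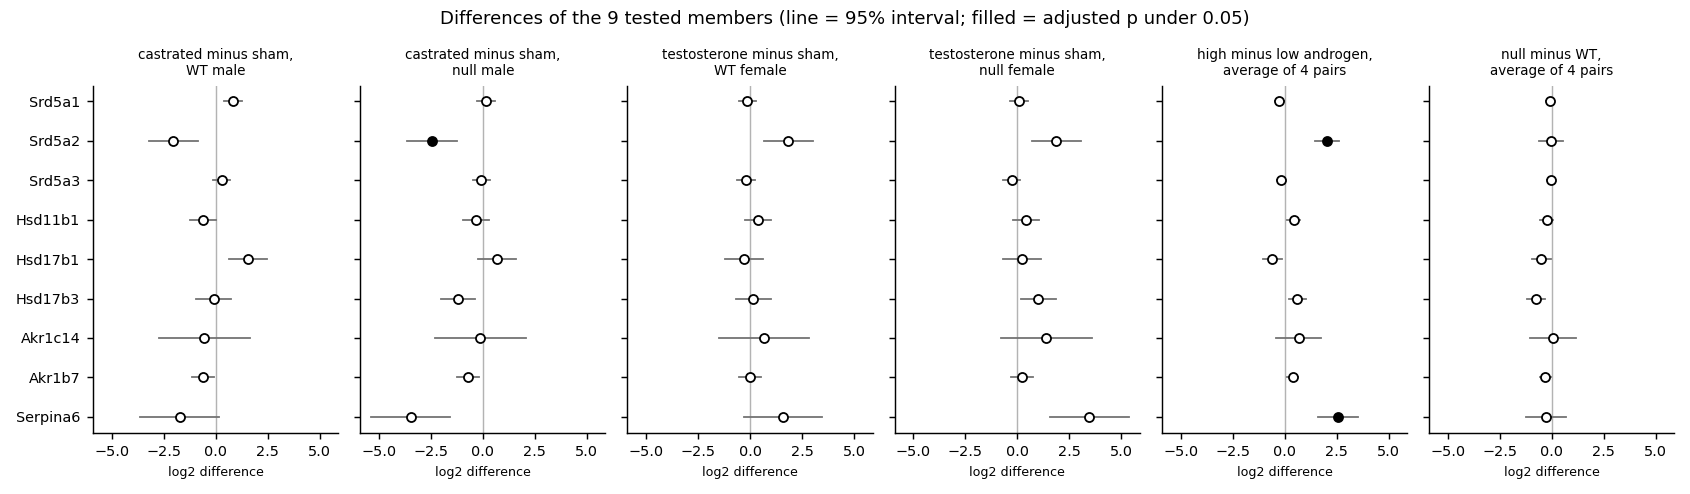
Log2 differences with 95% intervals of the 9 tested genes in 6 comparisons; filled points have an adjusted p under 0.05. Srd5a2 is filled in castrated null males (-2.45) and in the androgen average (2.05), Serpina6 in the androgen average (2.57), and no point is filled in the null minus WT average.

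Kcnk3 genotype gave no called difference in the set. By limma 0 of 9 genes were called in sham males (against 0.0838% of all features), castrated males (0.699%), sham females (0.486%) or treated females (0.0354%), and 0 of 9 in the average of the 4 pairs (2.4%). At an unadjusted p under 0.05 there were 0, 4, 1 and 0 in the pairs and 3 in the average. In castrated males 4 of 9 genes had groups that did not overlap, against 16.7% of all features; Srd5a1, Hsd17b1 and Serpina6 were lower in null arrays, and Hsd17b3 has no direction here, since it was well above background on 0 castrated null arrays and 1 castrated WT array. In sham males, sham females and treated females 1, 0 and 0 of 9 genes did not overlap, against 14.7%, 12.9% and 8.73% of all features. The fitted median difference of the 9 genes was -0.54 in castrated males, -0.12 in sham males, -0.12 in sham females and -0.05 in treated females, against -0.01, -0.04, -0.02 and -0.02 for all features. The interactions of genotype with castration (0.0805% of all features) and with testosterone (0.0966%) also had 0 of 9 by limma, with 1 and 0 at an unadjusted p under 0.05.

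The features whose levels ran most like Srd5a2 over the 24 arrays, among 15962 compared, were St6galnac2, a sialyltransferase (r = 0.955), Myo1a, an unconventional myosin (r = 0.932), and Kcnj4, an inwardly rectifying potassium channel (r = 0.922). Those most like Serpina6 were Slc6a13, a GABA transporter (r = 0.919), Epha1, an ephrin receptor (r = 0.899), and Nags, the N-acetylglutamate synthase of the urea cycle (r = 0.878). Srd5a2 and Serpina6 correlated by 0.669 with each other. These coefficients are Pearson's r over arrays that share groups, and for Serpina6 they include the 2 arrays with liver transcripts.

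Of 28 measured genes in a list of 36 other steroid metabolizing enzymes, 1 was higher and 4 were lower in the androgen average, in which 2.79% of all features were called. Akr1c18, the 20α-hydroxysteroid dehydrogenase that marks the X-zone, fell by 6.59 (SE 0.87, limma adjusted p = 0.000188). Akr1d1, the 5β-reductase, fell by 4.99 (SE 0.60, limma adjusted p = 8.15e-05), although it was well above background on only 1 array in at least 1 group. Hsd17b7, a 17β-hydroxysteroid dehydrogenase that also serves cholesterol synthesis, fell by 1.07 (SE 0.25, limma adjusted p = 0.0201), and Akr1c13 fell by 0.64 (SE 0.12, limma adjusted p = 0.00335). The one that rose was Sult1e1, the oestrogen sulfotransferase, by 1.31 (SE 0.29, limma adjusted p = 0.0144), and it too had a group with only 1 array well above background. The list's median difference was 0.04, against -0.01 for all features. In pairs of groups, 2 of the 28 were called in castrated WT males and 2 in sham WT females against males, in each case Akr1c18 (11.77 ± 1.75 and 11.59 ± 1.75, limma adjusted p = 0.0021 and 0.00118) and Akr1d1, both higher; 0.599% and 2.01% of all features were called there. Akr1d1 was also called in sham males, where it was higher in null than in WT arrays (limma adjusted p = 0.0411), and in null females, where it was lower after testosterone (limma adjusted p = 0.0134), against 0.0838% and 0.209% of all features. Xist signal was 19.5%, 18.3% and 6.08% of the female level in sham null male arrays 1, 2 and 3. The X-zone marker sum on these arrays was 93.9, 133 and 3.71. The part of this signal in the Akr1d1 call in sham males was not tested. In sham null mice Hsd17b12 was lower in females than in males (-0.67 ± 0.15, limma adjusted p = 0.0459), against 0.747% of all features.

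By limma none of the 12 steroid synthesis genes, 15 measured steroid receptors and chaperones or 14 glucocorticoid response genes was called in the androgen average; 1, 3 and 3 of them had an unadjusted p under 0.05. In castrated null males Cyp11b2, the aldosterone synthase, rose against sham null males (2.16 ± 0.49, limma adjusted p = 0.0351) and against castrated WT males (2.97 ± 0.49, limma adjusted p = 0.00389). Star, which delivers cholesterol for steroid synthesis, and Por, the electron donor of microsomal P450 enzymes, were higher in sham WT females than males (0.84 ± 0.19 and 0.85 ± 0.18, limma adjusted p = 0.0262 and 0.0136). In the null minus WT average, Cdkn1a fell by 0.96 (SE 0.20, limma adjusted p = 0.0141) and Hsd17b12, a dehydrogenase of long-chain fatty acid elongation, by 0.38 (SE 0.08, limma adjusted p = 0.0122).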

How the data were processed

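Per the file headers, the deposited scanner files hold Agilent Feature Extraction spot intensities of 62976 spots, 59305 of them not controls, and the processed signal intensity used here had local background subtracted by that software. The deposited value table holds log2 values of the same arrays; its median was 6.333 on each array and its sorted columns differed by at most 0.0605, as after quantile normalization, which was found from the values because how the authors made it is not given in the sources used here. It served only as an alternative.

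Here log2 of the processed signal minus each array's 75th percentile (426.5 to 1099.1) was used. Spots marked as outliers (160 to 283 per array) were left out, which removed 443 probe values, and spots of a probe were averaged. Probes well above background on at least 3 of 24 arrays were kept (36832), and the probe with the highest mean stood for a symbol. Symbols came from RefSeq by accession for 26401 probes and by symbol for 4594, and were kept from the file for 4770. Between 57.0% and 64.7% of spots were well above background, and signal near background limits the precision.

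Means of the 8 groups were fitted with limma 3.58.1 in R 4.3.3 (lmFit and eBayes, 16 residual and 2.24 prior degrees of freedom), over 14 comparisons: 10 of 2 groups, 2 averages and 2 interactions. Intervals are 95% intervals. Averages and interactions over groups below background are fitted values. Python 3.11.15, numpy 2.4.6, pandas 2.3.3, scipy 1.17.1, matplotlib 3.10.9 and the R package data.table (version 1.17.8) were used, and the fit was tested on simulated data. The labels do not say that arrays come from separate animals, so p-values measure the spread between these samples.

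The genes, lists, marker lists and tests were chosen with earlier results of these data known. All 10 genes are described, with each array's values for those called in at least 1 comparison and ranges for most others; the 3 features most like each called gene and called genes of 4 lists are named. Marker lists covered cortex, medulla, X-zone, liver, kidney, adipocytes, red blood cells, gonad and sex-linked genes. Kidney markers summed to at most 0.818 of the 75th percentile, adipocyte markers to 339 to 1.37e+03 and red blood cell markers to 257 to 1.4e+03. Once group means were removed, arrays with the same replicate number had a mean correlation of 0.226 and a lowest one of -0.355. Except for array 3 of both WT female groups, a shared number was also a shared slide, so these values cannot separate pairing from slide. Numbers were not treated as pairs in the main fit. With slide as a block 1689 features were called in the androgen average, against 866 in the main fit. Alternatives were other background corrections and normalizations, the deposited table, filters, every probe, a block for slide or for replicate number, an RNA integrity covariate, a trended robust fit, and omission of slide 4, of arrays with liver transcripts (Alb above 2), of arrays with opposite sex-linked signal and of each array.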

Additional observations from a re-analysis of the deposited data

How the results depend on the processing

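The androgen averages of Srd5a2 and Serpina6 were called under all 36 alternatives that could give them, at 1.84 to 2.17 (adjusted p 8.47e-05 to 0.000769) and 1.88 to 2.78 (adjusted p 3.89e-05 to 0.00944). No difference of the 2 genes that was tracked reversed. Of 9 genes, the number called changed as follows. In castrated against sham WT males it was 0. It was 1 (Srd5a1 each time) with quantile normalization, RNA integrity as a covariate or a trended robust fit. It was 2 (Srd5a1 and Hsd17b1) with slide as a block or without slide 4. Counts over all 31040 features moved too, from 186 in the main fit to 197, 219 and 206 in the former fits. They were 329 with slide as a block and 254 without slide 4. In castrated against sham null males it was 1, but 0 with no filter on dim probes (Srd5a2 adjusted p = 0.0642), 2 without the arrays with liver transcripts and 0 without the arrays with opposite sex-linked signal. Over all features the count in castrated against sham null males was 312 of 31040 in the main fit. It was 215 of 48037 with no filter and 419 of 31040 without the arrays with liver transcripts. In null against WT castrated males the number of the 9 genes called was 0, but 1 (Serpina6) without the arrays with liver transcripts. Over all features it was 217 and 293. Between the sexes in WT it was 1, but 2 without slide 4 (with Srd5a1), 2 without the arrays with liver transcripts (with Serpina6) and 0 without the arrays with opposite sex-linked signal. Between the sexes in null mice it was 1, but 2 with normexp and quantile normalization (with Akr1b7), 3 with the deposited table (with Akr1b7 and Hsd17b3), 2 without slide 4 (with Hsd17b3), 2 without the arrays with liver transcripts (with Serpina6) and 0 without the arrays with opposite sex-linked signal. In the null minus WT average it was 0, but 1 (Hsd17b3) over every probe or with RNA integrity as a covariate. Hsd17b3 was well above background on only 6 arrays, so its calls here and below compare readings largely at background. The cause of these changes was not tested, apart from the fewer arrays in some fits; the androgen average could not be fitted without the arrays with opposite sex-linked signal, and groups left with 1 array were assumed to vary like the others.

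With each array left out in turn the number of genes called ranged from 0 to 1 in null against WT castrated males, null against WT sham females (Hsd17b3 without sham WT female array 2), castrated WT males and the null minus WT average. It ranged from 0 to 2 in castrated null males and between the sexes in null mice, from 1 to 2 between the sexes in WT, and from 2 to 4 in the androgen average, where Hsd17b1 and Srd5a1 were added without sham WT female array 3. It was 0 throughout in the other comparisons. Counts over all features moved with single arrays too. In castrated WT males 81 features were called without castrated WT male array 1, against 186 in the main fit. In null against WT sham females 130 were called without sham WT female array 2, against 151.

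With the replicate number as a block, 1 of 9 genes was called in the null minus WT average, Hsd17b3 (limma adjusted p = 0.0492). Among the 9 genes the block moved no other count by more than 1.5 times. Over all features counts moved further. They went from 745 to 1385 in the null minus WT average and from 151 to 293 between genotypes in sham females. Between genotypes in treated females they went from 11 to 47, and with testosterone in WT females from 23 to 82. The numbers were not shown to pair the samples.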
